A study of Mus musculus with 10 samples.

Results

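Genes that repress transposable elements (TE) through chromatin, or that destroy or block their RNA and its reverse transcripts, were examined in round spermatids after a short heating of the testis. The set was given by gene name with no measured value in its rule, but was chosen with earlier results of these data known. All 34 genes of the set were found in the count table, which lists 55401 genes. Each is annotated as protein coding in GENCODE M21. By role, 6 genes belong to DNA methylation, 9 to the methylation of histone H3 lysine 9 (H3K9), 3 to the HP1 readers of that mark, 4 to the HUSH and MORC silencers, 2 to the deposition of histone H3.3, 2 to the nuclear arm of the piRNA pathway and 8 to restriction factors.

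The mice were adult CD1 males, from an outbred stock. Under isoflurane, their testes were kept in contact with water for 30 minutes, at 42 °C in the heated group and at 33 °C in the control group. Both groups thus shared the anaesthesia and the bath. After waking, the mice were killed and round spermatids, the haploid cells that follow meiosis, were isolated. Each group had 5 mice with 1 library of ribosome-depleted, stranded total RNA per mouse, and the age in weeks and the purity of the cells are not given in the labels. Small RNAs were not analysed here.

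Much of a mammalian genome is made of TE, and a germ line that lets them copy themselves passes the new insertions on. DNA methyltransferases and their helpers mark TE copies with 5-methylcytosine, while zinc finger proteins bring TRIM28 and the H3K9 methyltransferase SETDB1 to them. HP1 proteins and the HUSH complex read H3K9 methylation and keep such sites closed. In fetal male germ cells, piRNAs direct DNA methylation to young TE, and the chromatin that carries these marks is later rebuilt when spermatids replace their histones with protamines. Restriction factors act after transcription, on the RNA, on its packaging or on the DNA copied from it.

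Total counts per library ran from 60623568 in 42 °C replicate 2 to 117723075 in 33 °C replicate 2. The share of all counts that fell on TE was 4.62% to 9.07% at 33 °C and 5.79% to 16.2% at 42 °C, and 42 °C replicate 2 held the highest share as well as the lowest depth. Without that library the 42 °C group ran from 5.79% to 7.30%. The heat shock gene *Hspa1a*, used to check the treatment labels, had a level of 0.278 ± 0.0987 CPM (read counts scaled to library size; SD, n = 5) in the controls and of 2.14 ± 1.04 CPM in the heated group (log2 fold change 2.94, SE 0.36, edgeR adjusted p = 0.0106), and the groups did not overlap. Summed markers of round spermatids stood at 734 to 1540 CPM at 33 °C and 1180 to 1828 CPM at 42 °C, and those of spermatocytes at 1993 to 2339 and 1582 to 2168 CPM. The 13 genes listed for elongating spermatids summed to 2599 to 5597 CPM at 33 °C and 3316 to 8078 CPM at 42 °C. This was the largest sum of any list, highest in 42 °C replicate 5, with a median log2 fold change of 0.38. Sums over different genes do not rank cell types, and in which stage these RNAs are made was not tested. Spermatogonial markers summed to 26.3 to 31.6 CPM over all libraries, Sertoli cell markers to 10.9 to 25.4, Leydig cell markers to 2.98 to 18.9 and macrophage and leukocyte markers to 7.92 to 12.4 CPM. No gene of any marker list was at 0 in all libraries, and none of the 10 lists held a gene past the edgeR threshold between temperatures. In such bulk RNA, fewer cells of a type and less RNA per cell cannot be told apart.

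No repressor gene passed the test between 42 °C and 33 °C. Of the 34, 33 had enough counts to be tested, and 0 were called higher and 0 lower by edgeR at an adjusted p under 0.05, beside 0.0962% of all 24948 genes tested. At an unadjusted p under 0.05, 1 of 33 stood out (*Ehmt1*, higher), beside 11.9% of all genes. DESeq2 called 0 and had 1 higher at an unadjusted p under 0.05, where 2607 of the 24948 genes were higher and 702 lower. It called 256 of all genes higher and 31 lower. The limma voom fit called 0 members and had 0 higher and 2 lower at that level, beside 3275 and 1699 of all genes. It called 124 of all genes higher and 29 lower. In no member did the CPM ranges of the groups fall apart, beside 2.08% of all genes. The log2 fold change was below 0 for 23 of 33 members with a median of −0.13, beside 53.0% of all genes and a median of −0.03. With TMM factors from genes alone or with library totals, 19 of 33 were below 0, and the background moved too, to 12019 and 11860 of 24948 genes (13222 in the fit reported).

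The width of the intervals sets what could have been seen. For 19 of 33 members the 95% interval of the difference between temperatures lay within 1.5-fold in either direction, and for 31 of 33 it lay within 2-fold. *Ehmt1* and *Trex1* were the exceptions to the wider bound. For 0 members was the interval inside 1.25-fold, so a difference of that size was not excluded for any of them.

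**Figure D1:**
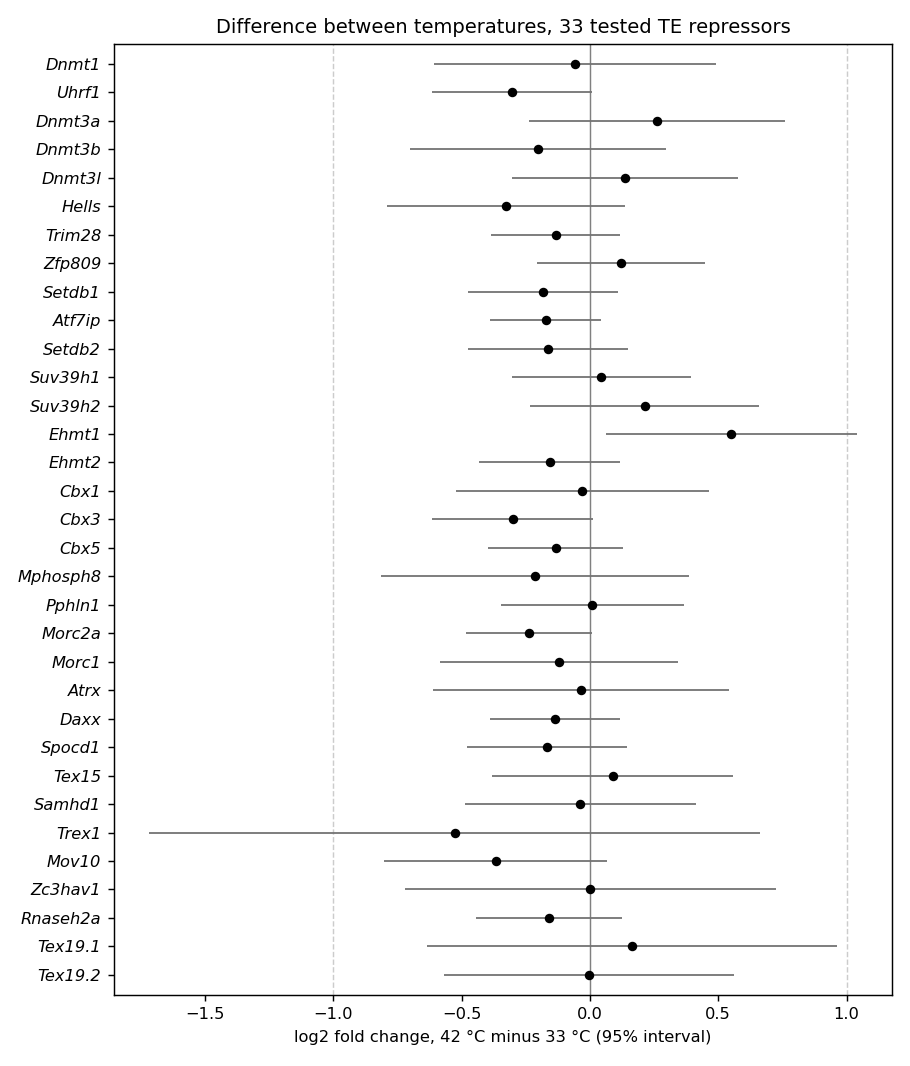
Log2 fold change of the 33 tested repressor genes, 42 °C minus 33 °C, from the edgeR fit over 5 libraries per group, in order of role. Points are estimates, bars are 95% intervals and dashed lines mark a 2-fold difference; the bar of *Ehmt1* lies above 0 before adjustment, and the bars of *Ehmt1* and *Trex1* reach past a dashed line.

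Levels between genes were compared as CPM per kb of exon, averaged over the 10 libraries. The exon length of a gene merged the exons of all its annotated transcripts, and levels and ratios per length depend on that choice. The 34 genes ranged from 144 CPM per kb for *Rnaseh2a* to 0.00904 for *Apobec3*. *Rnaseh2a* lay at percentile 98.6 of the tested genes, *Trim28* (111 CPM per kb) at 98.0, *Ehmt2* (85.9) at 97.2, *Daxx* (52.2) at 94.9, *Uhrf1* (44.1) at 93.9 and *Tex15* (30.4) at 91.2. At the other end *Atrx* had 0.0254 CPM per kb, at percentile 1.04. Several enzymes and their paralogs or partners sat far apart in this range, and the order within each such pair was the same in 10 of 10 libraries.

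**Figure D2:**
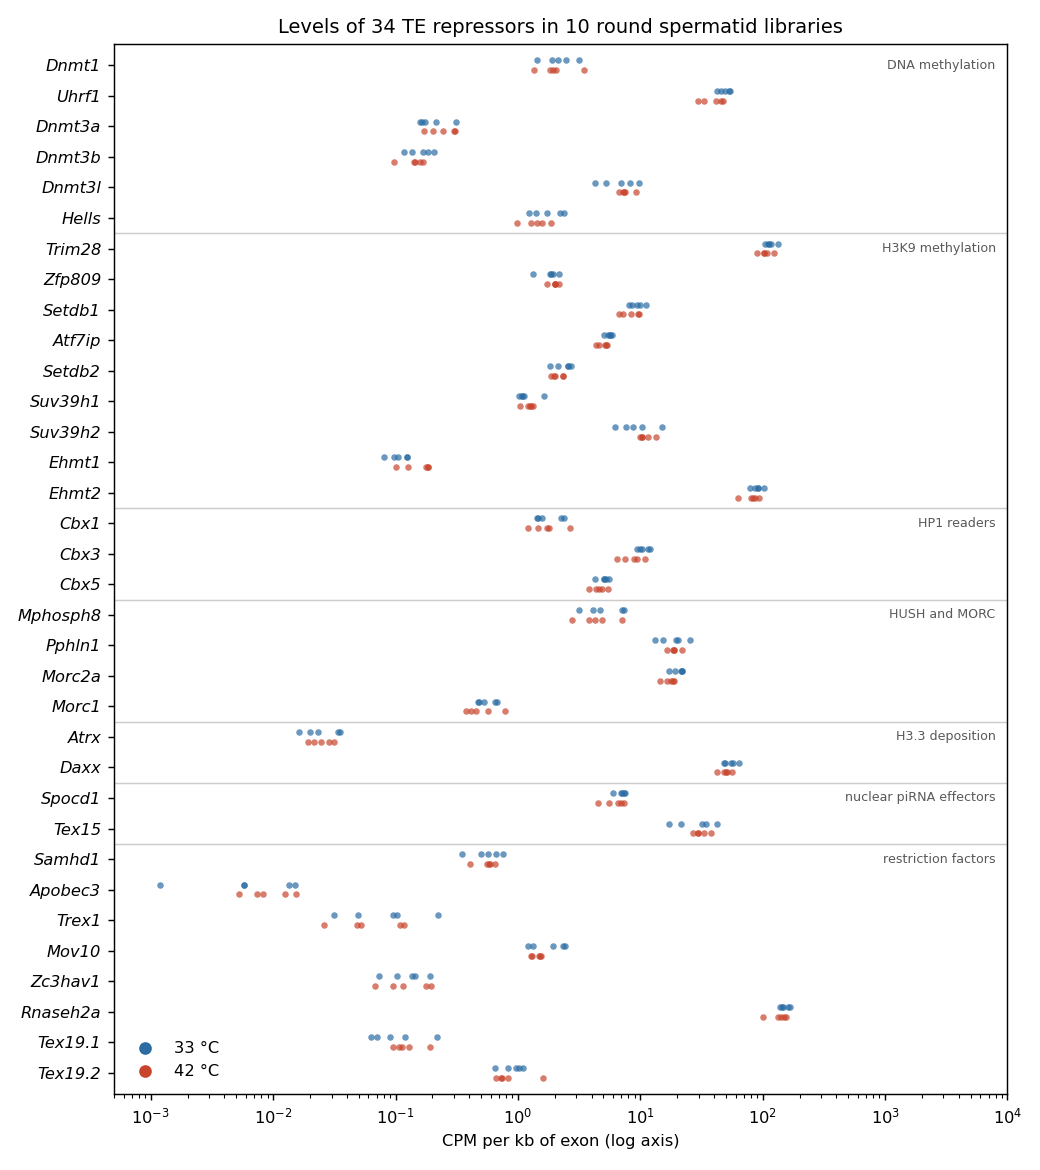
CPM per kb of exon, on a log axis, for the 34 repressor genes grouped by role; each point is 1 library, with 5 libraries at 33 °C and 5 at 42 °C. The points of the groups overlap in every row, and the rows span from 144 CPM per kb on average (*Rnaseh2a*) to 0.00904 (*Apobec3*).

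Among the genes of DNA methylation, *Uhrf1* stood above the enzyme it serves. UHRF1 binds hemimethylated DNA after replication and brings in DNMT1, the maintenance methyltransferase. *Uhrf1* (chr17:56303321-56323486, GRCm38, + strand) was at 210, 225, 195, 229 and 179 CPM in 33 °C replicates 1 to 5 and at 203, 126, 194, 142 and 176 CPM in 42 °C replicates 1 to 5, an order of replicates used in all lists of values here. Its lowest values, 126, 142 and 176 CPM, came from heated mice and lay below all controls, but the ranges overlapped. The log2 fold change of *Uhrf1* came to −0.30 (SE 0.14, 95% interval −0.62 to 0.01, edgeR adjusted p = 0.446), and to −0.19 without 42 °C replicate 2. *Dnmt1* (chr9:20907209-20959888, − strand) was at 14.1, 15.8, 23.1, 18.1 and 10.6 CPM at 33 °C and at 13.4, 25.5, 14.3, 10.1 and 15.2 CPM at 42 °C. It was highest in 42 °C replicate 2 and 33 °C replicate 3, with a log2 fold change of −0.06 (SE 0.25), which lay above 0 (at most 0.10) when 33 °C replicate 3 or 42 °C replicate 4 was left out. Per length, *Uhrf1* exceeded *Dnmt1* 8.59-fold to 29.4-fold across libraries, with a median of 24.0-fold and its lowest value in 42 °C replicate 2.

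The de novo side showed the same unevenness. DNMT3A and DNMT3B place methyl groups on unmethylated DNA, and DNMT3L, which has no enzyme activity of its own, helps them do so in germ cells. *Dnmt3l* lay at 12.7 to 29.1 CPM at 33 °C and 19.9 to 27.3 CPM at 42 °C, while *Dnmt3a* lay at 2.62 to 5.16 and 2.86 to 5.06 CPM and *Dnmt3b* at 0.597 to 1.06 and 0.492 to 0.860 CPM. Per length the helper was thus 17.0-fold to 62.0-fold above *Dnmt3a* (median 33.9). None of these 3 genes passed the test between temperatures, with log2 fold changes of 0.14 (SE 0.20), 0.26 (SE 0.23) and −0.20 (SE 0.23). *Hells*, a chromatin remodeller needed for DNA methylation at repeats, was at 12.5, 10.2, 17.0, 15.9 and 8.87 CPM at 33 °C and at 11.3, 13.5, 9.14, 7.13 and 10.3 CPM at 42 °C. Its values overlapped between groups (log2 fold change −0.33, SE 0.21, edgeR adjusted p = 0.518).

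The H3K9 methyltransferases came in pairs of which 1 gene carried most of the RNA. EHMT1 (GLP) and EHMT2 (G9a) work as a dimer that adds up to a pair of methyl groups to H3K9 in euchromatin. *Ehmt2* (chr17:34898469-34914052, + strand) was at 501, 567, 434, 479 and 505 CPM at 33 °C and at 477, 343, 510, 458 and 441 CPM at 42 °C. *Ehmt1* (chr2:24789928-24919614, − strand) was at 0.651, 1.00, 1.00, 0.843 and 0.789 CPM at 33 °C and at 1.03, 1.50, 0.823, 1.45 and 1.51 CPM at 42 °C. Per length *Ehmt2* exceeded *Ehmt1* 339-fold to 1137-fold, with a median of 758-fold. *Ehmt1* also had the smallest unadjusted p of the set: 4 of its 5 heated libraries lay above all controls and the other, replicate 3, lay among them. The estimate for *Ehmt1* was a log2 fold change of 0.55 (SE 0.23, 95% interval 0.06 to 1.04), or 1.47-fold, with an edgeR adjusted p = 0.410. The count behind it was small, at 59 to 144 reads per library. For *Ehmt2* the estimate was −0.16 (SE 0.13, edgeR adjusted p = 0.590), and it was −0.05 without 42 °C replicate 2, which held its lowest value.

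SUV39H1 and SUV39H2 add the third methyl group to H3K9 at pericentric heterochromatin, and SUV39H2 is known for its enrichment in testis. *Suv39h2* (chr2:3455815-3475031, − strand) ranged from 27.5 to 66.5 CPM at 33 °C and from 44.0 to 59.0 CPM at 42 °C. *Suv39h1* (chrX:8061171-8074760, − strand) ranged from 5.38 to 8.67 CPM and from 5.44 to 7.07 CPM. The ratio per length, *Suv39h2* over *Suv39h1*, was 3.79 to 14.8 with a median of 8.90. Neither passed the test between temperatures (log2 fold changes 0.21, SE 0.21, and 0.04, SE 0.16).

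Promoter windows of these paralogs are shown because both are pairs of H3K9 methyltransferases whose RNA levels lay far apart. Each is the RefSeq window around an annotated start on GRCm38.p6, mostly upstream of it, and is read 5′ to 3′ on the strand of the gene. Where RefSeq gave several starts, the window nearest the start in the count table was taken. Capitals mark matches, on either strand, to a cAMP response element (TGACGTCA), a heat shock element core (GAANNTTC), a GC box (GGGCGG) and a CCAAT box (CCAAT).
Suv39h1, chrX:8074711-8075010, − strand: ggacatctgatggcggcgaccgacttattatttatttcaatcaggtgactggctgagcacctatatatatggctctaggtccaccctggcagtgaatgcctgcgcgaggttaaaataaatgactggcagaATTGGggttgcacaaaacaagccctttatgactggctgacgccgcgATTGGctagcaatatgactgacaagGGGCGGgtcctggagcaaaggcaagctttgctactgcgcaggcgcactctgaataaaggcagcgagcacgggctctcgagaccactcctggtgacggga
Suv39h2, chr2:3474937-3475236, − strand: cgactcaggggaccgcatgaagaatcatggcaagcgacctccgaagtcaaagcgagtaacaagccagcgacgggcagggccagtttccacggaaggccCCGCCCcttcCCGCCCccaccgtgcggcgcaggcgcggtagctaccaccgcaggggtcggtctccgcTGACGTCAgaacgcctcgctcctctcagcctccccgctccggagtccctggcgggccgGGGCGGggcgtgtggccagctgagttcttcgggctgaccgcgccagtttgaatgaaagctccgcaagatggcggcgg
Ehmt1, chr2:24919560-24919859, − strand: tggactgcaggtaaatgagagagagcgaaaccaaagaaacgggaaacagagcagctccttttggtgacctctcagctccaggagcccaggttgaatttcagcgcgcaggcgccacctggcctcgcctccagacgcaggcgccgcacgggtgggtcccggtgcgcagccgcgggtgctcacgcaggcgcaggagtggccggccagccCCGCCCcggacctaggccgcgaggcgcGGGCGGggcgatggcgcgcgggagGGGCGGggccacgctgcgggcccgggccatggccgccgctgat
Ehmt2, chr17:34898224-34898523, + strand: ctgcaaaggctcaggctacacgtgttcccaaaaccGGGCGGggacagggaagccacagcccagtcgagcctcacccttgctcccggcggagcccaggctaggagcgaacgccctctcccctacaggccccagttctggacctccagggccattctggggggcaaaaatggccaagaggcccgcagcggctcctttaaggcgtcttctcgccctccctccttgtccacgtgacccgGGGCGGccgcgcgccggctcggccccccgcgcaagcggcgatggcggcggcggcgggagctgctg
The *Suv39h2* window held 33 CpG dinucleotides, 3 GC boxes and a full cAMP response element, which 1.85% of 27025 windows of the same length carry. The *Suv39h1* window held 15 CpG, 1 GC box and 2 CCAAT boxes. The letters TGACG, the start of a cAMP response element, were not marked on their own. They occurred 2 times in the *Suv39h1* window and 2 times in the *Suv39h2* window, there within the full element. The windows of *Ehmt1* and *Ehmt2* looked alike by these measures, with 34 and 28 CpG, 3 and 2 GC boxes and no match to the other motifs, in spite of the distance between their levels. Of the 34 genes, 31 had a RefSeq window. A full cAMP response element was in 1 of them, a heat shock element core in 2 (*Dnmt1* and *Zfp809*, beside 7.96% of all windows), a GC box in 20 (beside 35.9%) and a CCAAT box in 13 (beside 38%). The shares of all windows came from 1 window per gene, the one farthest upstream, with no selection by gene class. For the members the window nearest the start in the count table was taken, so the shares are not compared like for like. Some matches overlap one another, and a match of letters does not show binding.

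**Figure D3:**
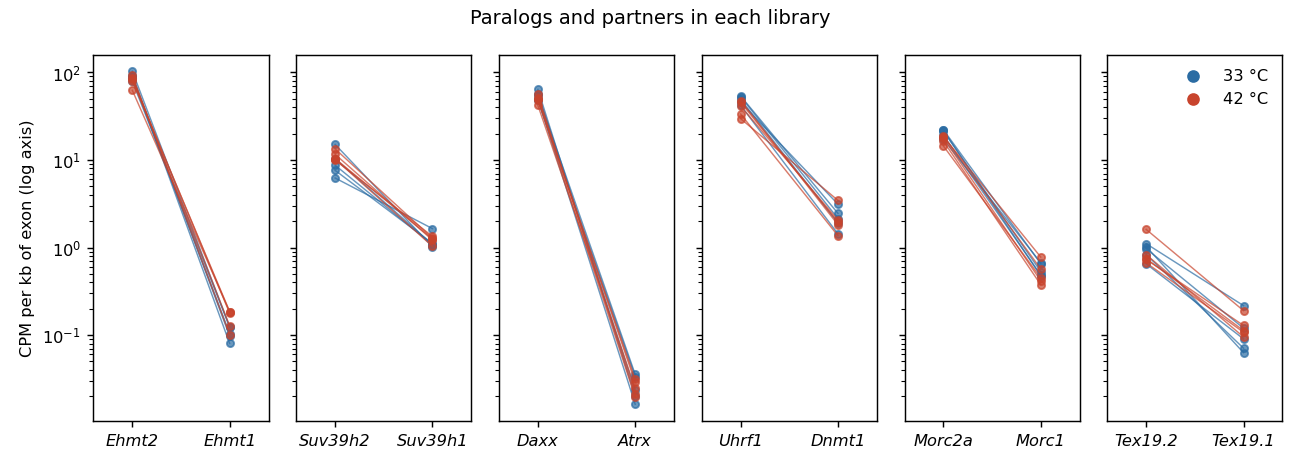
CPM per kb of exon, on a log axis, of 6 pairs of paralogs or partners; each line joins the values of 1 library, in blue for 33 °C and red for 42 °C. The line falls from left to right in all 10 libraries of each pair, most steeply from *Daxx* to *Atrx* and from *Ehmt2* to *Ehmt1*.

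The TRIM28 branch was abundant at its centre and lower at its ends. TRIM28 (KAP1) is the scaffold that zinc finger proteins recruit, and it was at 486, 560, 435, 455 and 471 CPM at 33 °C and at 454, 376, 511, 424 and 427 CPM at 42 °C (*Trim28*, chr7:12999114-13031035, + strand). Its lowest value again lay in 42 °C replicate 2 and the log2 fold change came to −0.13 (SE 0.12, edgeR adjusted p = 0.614). *Atf7ip*, which stabilises SETDB1, was at 117, 121, 105, 118 and 113 CPM at 33 °C and at 109, 95.0, 110, 89.2 and 106 CPM at 42 °C. It was the member whose libraries lay closest together among those listed in full (log2 fold change −0.17, SE 0.10, edgeR adjusted p = 0.486). *Setdb1* lay at 55.6 to 76.0 CPM at 33 °C and 46.3 to 66.5 CPM at 42 °C, its relative *Setdb2* at 7.46 to 10.9 and 7.54 to 9.53 CPM, and *Zfp809*, a zinc finger protein that binds retroviral primer sites, at 3.93 to 6.36 and 5.09 to 6.42 CPM. Per length *Setdb1* was 2.91-fold to 5.12-fold above *Setdb2*. Their log2 fold changes were −0.18 (SE 0.13), −0.16 (SE 0.14) and 0.12 (SE 0.15).

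HP1 proteins bind methylated H3K9 through a chromodomain, and their genes kept 1 order in all 10 libraries when scaled by length: *Cbx3* (HP1γ) above *Cbx5* (HP1α) above *Cbx1* (HP1β). Before that scaling, *Cbx5* lay above *Cbx3* in 42 °C replicate 2, at 48.6 and 38.8 CPM. *Cbx3* was at 61.9, 72.4, 56.2, 69.4 and 59.1 CPM at 33 °C and at 65.2, 38.8, 56.3, 45.1 and 53.6 CPM at 42 °C. Its 3 lowest values came from heated mice and the other 2 heated libraries lay inside the control range (log2 fold change −0.30, SE 0.14, 95% interval −0.61 to 0.01, edgeR adjusted p = 0.451, and −0.19 without 42 °C replicate 2). *Cbx1* was at 6.26, 6.73, 10.1, 9.58 and 6.06 CPM at 33 °C and at 7.69, 11.4, 7.35, 5.20 and 6.28 CPM at 42 °C, with its highest value in 42 °C replicate 2. Its log2 fold change of −0.03 (SE 0.23) lay so near 0 that other scalings moved it above 0. *Cbx5* lay at 38.3 to 50.2 CPM and 34.0 to 48.6 CPM (log2 fold change −0.13, SE 0.12). The ratio of *Cbx3* to *Cbx1* per length was 2.42 to 7.68 and that of *Cbx3* to *Cbx5* was 1.20 to 2.32. Annotated *Cbx3* pseudogenes held at most 309 reads each over all libraries, although reads shared between copies may have been split by the counting.

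The HUSH complex spreads H3K9 methylation over long TE such as L1, and MORC ATPases compact chromatin. Within this group *Mphosph8*, the chromodomain reader of HUSH, had the widest spread on the scale of log2(CPM + 0.5), with an SD of 0.497 around the group means, at percentile 93.1 of the tested genes. The pseudocount of 0.5 damps genes below about 1 CPM: from highest to lowest library *Mphosph8* spanned 2.67-fold, and *Apobec3* 13-fold, *Trex1* 8.42-fold, *Tex19.1* 3.45-fold and *Zc3hav1* 2.89-fold. It (chr14:56668248-56697430, + strand) was at 14.7, 16.7, 25.6, 26.6 and 11.4 CPM at 33 °C and at 17.5, 25.5, 15.4, 9.96 and 13.6 CPM at 42 °C. The 3 high libraries were 33 °C replicates 3 and 4 and 42 °C replicate 2, and the temperatures overlapped over nearly the whole range (log2 fold change −0.22, SE 0.28). On the opposite strand the noncoding gene *Gm16973* shares 384 bases with its exons. *Pphln1*, the periphilin subunit, lay at 60.5 to 116 CPM at 33 °C and 75.0 to 100 CPM at 42 °C (log2 fold change 0.01, SE 0.16).

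*Morc2a*, the partner of HUSH, was at 142, 140, 122, 137 and 111 CPM at 33 °C and at 121, 119, 115, 92.7 and 106 CPM at 42 °C. Its 2 lowest values and none of its 4 highest came from heated mice, and the log2 fold change came to −0.24 (SE 0.11, 95% interval −0.48 to 0.01, edgeR adjusted p = 0.447). The value was also −0.24 without 42 °C replicate 2. The long noncoding gene *Tug1* shares 483 bases with its exons on the opposite strand, and how the counting treated strand is not given here. *Morc1*, which silences TE in fetal male germ cells, lay at 3.08 to 4.34 CPM and 2.44 to 5.04 CPM (log2 fold change −0.12, SE 0.21). Per length *Morc2a* was 23.7-fold to 45.8-fold above it.

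DAXX and ATRX form the chaperone that deposits histone H3.3 at repeats and telomeres, and their genes stood farthest apart of all pairs. *Daxx* (chr17:33909414-33915590, + strand) was at 172, 202, 151, 155 and 180 CPM at 33 °C and at 159, 133, 178, 160 and 153 CPM at 42 °C. *Atrx* (chrX:105797615-105929403, − strand) was at 0.772, 0.435, 0.731, 0.352 and 0.507 CPM at 33 °C and at 0.422, 0.534, 0.466, 0.627 and 0.680 CPM at 42 °C, from 33 to 72 reads per library. Per length *Daxx* exceeded its partner 1431-fold to 3206-fold (median 2109). *Daxx* overlapped between temperatures (log2 fold change −0.14, SE 0.12), as did *Atrx* (−0.03, SE 0.27).

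SPOCD1 and TEX15 act with nuclear PIWI proteins when piRNAs direct DNA methylation in the fetal testis. *Tex15* lay at 166 to 406 CPM at 33 °C, with 332 CPM in replicate 1 and 309 CPM in replicate 2, and at 258 to 367 CPM at 42 °C. *Spocd1* lay at 19.3 to 24.1 CPM and at 14.6 to 23.8 CPM. Their log2 fold changes were 0.09 (SE 0.22) and −0.17 (SE 0.14), and both ranges overlapped.

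The restriction factors held both the most and the least abundant member. *Rnaseh2a* (chr8:84956610-84969767, − strand), the catalytic subunit of the enzyme that cuts RNA paired with DNA, was at 505, 591, 490, 563 and 511 CPM at 33 °C and at 545, 350, 520, 471 and 496 CPM at 42 °C. A single heated library, replicate 2, lay below all the others, and the log2 fold change moved from −0.16 (SE 0.13) to −0.04 without it. Of its exon bases, 9.66% are shared with *Gm49661* on the same strand. *Mov10*, an RNA helicase that restrains retrotransposons, was at 10.9, 7.48, 13.1, 13.6 and 6.74 CPM at 33 °C and at 7.35, 8.53, 8.41, 7.11 and 8.73 CPM at 42 °C. Its 3 highest values were controls, yet its lowest was a control too (log2 fold change −0.37, SE 0.20, 95% interval −0.80 to 0.07, edgeR adjusted p = 0.477). *Samhd1*, which lowers the nucleotides that reverse transcription needs, lay at 3.21 to 6.95 and 3.72 to 5.90 CPM (log2 fold change −0.04, SE 0.21).

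*Zc3hav1* (ZAP), which binds CpG-rich foreign RNA, was at 0.894, 0.480, 1.26, 0.939 and 0.665 CPM at 33 °C and at 0.442, 1.16, 0.624, 0.751 and 1.28 CPM at 42 °C, a wide overlap with a log2 fold change of 0.00 (SE 0.33). *Tex19.1* and *Tex19.2* are neighbouring paralogs, and *Tex19.1* is known to restrain L1 in germ cells and early embryos. *Tex19.2* was at 1.70, 2.09, 2.26, 1.98 and 1.33 CPM at 33 °C and at 1.53, 3.29, 1.69, 1.37 and 1.50 CPM at 42 °C. *Tex19.1* was at 0.132, 0.118, 0.406, 0.224 and 0.169 CPM at 33 °C and at 0.211, 0.356, 0.178, 0.202 and 0.241 CPM at 42 °C, from 12 to 40 reads per library. *Tex19.2* was 5.10-fold to 16.3-fold above its paralog per length, and reads that fit both genes may have been split. Neither passed the test between temperatures (log2 fold changes −0.00, SE 0.26, and 0.17, SE 0.37).

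*Trex1*, an exonuclease that removes stray DNA, and *Apobec3*, a cytidine deaminase that mutates reverse transcripts, were near the limit of the data. *Trex1* was at 0.110, 0.0362, 0.254, 0.117 and 0.0564 CPM at 33 °C and at 0.0301, 0.133, 0.0595, 0.0560 and 0.126 CPM at 42 °C, from 3 to 25 reads. Its groups overlapped (log2 fold change −0.53, SE 0.55, edgeR adjusted p = 0.667). All of its exon bases (100%) are also exon bases of *Atrip* on the same strand, so its reads may belong to either gene. *Apobec3* was at 0.0552, 0.0543, 0.142, 0.128 and 0.0113 CPM at 33 °C and at 0.0703, 0.119, 0.0496, 0.0784 and 0.147 CPM at 42 °C. With 1 to 14 reads per library it did not pass the filter on low counts and had no test.

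Spread within a temperature exceeded the difference between temperatures for several members, and it followed particular libraries. Among controls, replicate 5 was lowest for 42.4% of members and 28.1% of all genes, and highest for 18.2% and 25.9%. Replicate 3 was lowest for 33.3% and 23.2%, and highest for 27.3% and 26.7%. Among heated libraries, replicate 2 was lowest for 27.3% and 33.2%, and highest for 33.3% and 28.1%. Replicate 4 was lowest for 33.3% and 21.9%, and highest for 15.2% and 23.1%. Each library came from a different mouse, so mouse, cell isolation and library preparation cannot be told apart. *Dnmt1* came next on the scale of log2(CPM + 0.5) (SD 0.440, percentile 89.4, 2.53-fold from highest to lowest library), and like *Mphosph8* it was high in 33 °C replicates 3 and 4 and 42 °C replicate 2 and low in 33 °C replicate 5 and 42 °C replicate 4. *Tex15* ran the other way within the controls: its lowest values, 166 and 206 CPM, lay in 33 °C replicates 3 and 4, and its highest, 406 CPM, in replicate 5. The same 3 controls held the lowest and highest values of *Suv39h2* (27.5, 33.6 and 66.5 CPM), *Pphln1* (60.5, 69.7 and 116 CPM) and *Dnmt3l* (15.7, 12.7 and 29.1 CPM). Summed round spermatid markers were at 893, 734 and 1540 CPM in 33 °C replicates 3, 4 and 5 and at 1828 CPM in 42 °C replicate 4. In 42 °C replicate 2 they were at 1210 CPM, the median of the heated group. Summed spermatocyte markers were at 1993, 2254 and 2153 CPM in 33 °C replicates 3, 4 and 5. They were at 1582 and 1787 CPM in 42 °C replicates 2 and 4. Summed Leydig cell markers were at 18.9 CPM in 33 °C replicate 3 and at most 7.63 CPM in any other library. Whether the makeup of the cells had a part in these spreads was not tested.

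**Figure D4:**
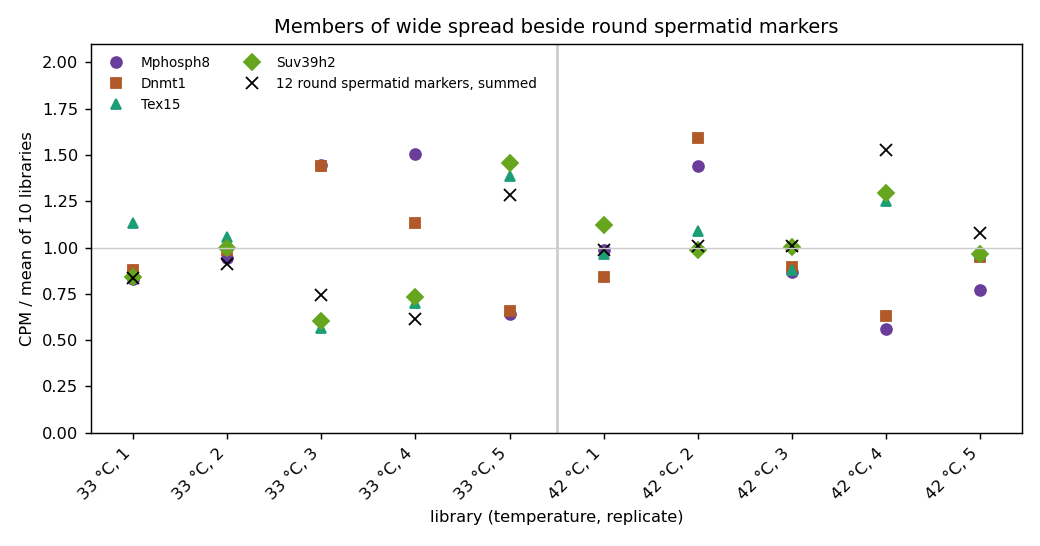
CPM of *Mphosph8*, *Dnmt1*, *Tex15* and *Suv39h2*, and of 12 round spermatid markers summed, each divided by its mean over the 10 libraries. *Tex15*, *Suv39h2* and the markers are highest among controls in 33 °C replicate 5, where *Mphosph8* and *Dnmt1* are lowest; in 33 °C replicate 3 the points of *Mphosph8* and *Dnmt1* nearly coincide.

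The members were also set against the TE load of each library. A second edgeR fit held the temperature constant and gave the slope of each gene on the log2 ratio of TE counts to gene counts, so that a slope of 1 would be a doubling of the gene's CPM per doubling of that ratio. In it 4 of 33 members had a positive slope past the threshold (*Dnmt1*, *Cbx1*, *Tex19.2* and *Trex1*), beside 10.6% of all genes. Another 4 had a negative slope past it (*Ehmt2*, *Daxx*, *Rnaseh2a* and *Trim28*), beside 10.8% of all genes. So 24.2% of the members and 21.4% of all genes tested moved with the TE load, and the share among the repressors was near the background.

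The 4 genes with a negative slope were abundant and shallow in slope. *Ehmt2* fell by 0.30 on the log2 scale per doubling of the TE ratio (SE 0.05, edgeR adjusted p = 0.00263). *Daxx* had a slope of −0.25 (SE 0.06, edgeR adjusted p = 0.0121), *Rnaseh2a* of −0.29 (SE 0.07, edgeR adjusted p = 0.0136) and *Trim28* of −0.21 (SE 0.06, edgeR adjusted p = 0.0279). All 4 had their lowest CPM of the 10 libraries in 42 °C replicate 2, where TE took 16.2% of counts, and their highest in 33 °C replicate 2, where TE took 4.62%. The positive slopes were 0.59 for *Dnmt1* (SE 0.16, edgeR adjusted p = 0.0200), 0.47 for *Cbx1* (SE 0.15, edgeR adjusted p = 0.0461), 0.55 for *Tex19.2* (SE 0.16, edgeR adjusted p = 0.0314) and 1.28 for *Trex1* (SE 0.40, edgeR adjusted p = 0.0404). *Dnmt1*, *Cbx1* and *Tex19.2* were highest in 42 °C replicate 2, and *Trex1* was highest in 33 °C replicate 3.

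**Figure D5:**
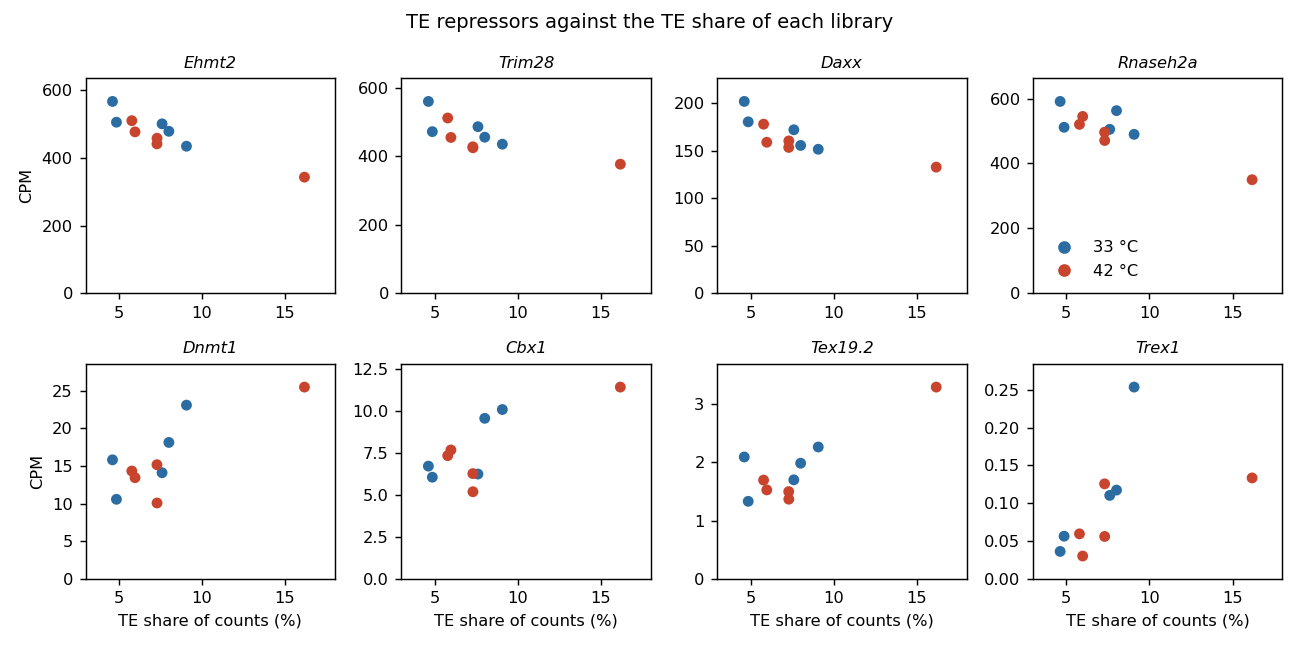
CPM of the 8 repressor genes with a slope past the threshold against the percentage of the library's counts on TE; each point is 1 library, blue for 33 °C and red for 42 °C. The point at 16.2% is 42 °C replicate 2; it is the lowest of *Ehmt2*, *Trim28*, *Daxx* and *Rnaseh2a* and the highest of *Dnmt1*, *Cbx1* and *Tex19.2*.

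Most of these calls rested on that library. Without 42 °C replicate 2, 2 members had a positive slope past the threshold (*Mov10* and *Trex1*), beside 3.29% of all genes. There were 0 with a negative one, beside 0.571% of all genes. At an unadjusted p under 0.05 in edgeR, 6 members had a positive and 5 a negative slope, beside 3480 and 2224 of 25197 genes. The slope of *Ehmt2* was then −0.25 (edgeR adjusted p = 0.131), that of *Daxx* −0.31 (edgeR adjusted p = 0.0939) and that of *Dnmt1* 0.51 (edgeR adjusted p = 0.249). *Trim28* (−0.25) and *Cbx1* (0.39) also stayed within 1.5 times of their slopes. Those of *Rnaseh2a* and *Tex19.2* shrank to −0.13 and 0.20 (edgeR adjusted p = 0.434 and 0.634). The slope of *Trex1* grew to 2.31 (edgeR adjusted p = 0.0360), on 3 to 25 reads per library that may belong to *Atrip*. Leaving out 33 °C replicate 2, 33 °C replicate 3 or 42 °C replicate 3 left 5, 3 and 5 of the 8 calls. Of all genes, these fits called 2428, 2287 and 2221 higher and 1882, 2021 and 2152 lower, beside 2655 and 2692 with all libraries. The scaling mattered too: library totals gave 8 members higher and 1 lower and moved the median slope of all genes from −0.02 to 0.10, with 3568 genes higher and 803 lower. TMM factors from genes alone gave 8 members higher and 3 lower, beside 3037 and 2059 of all genes. DESeq2 size factors gave 3 and 5, beside 2509 and 3269. DESeq2 itself gave 7 and 5, beside 2868 and 3997, and limma voom 2 and 5, beside 2639 and 2664. The library 42 °C replicate 2 also had the lowest depth and the lowest sum of spermatocyte markers (1582 CPM), and the part of these in the slopes was not tested.

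Other genes of the same pathways gave no call between temperatures either. Of 41 partners and paralogs in the table, 37 were tested and 0 passed in edgeR, with 1 at an unadjusted p under 0.05. DESeq2 and limma voom also called 0, with 1 and 4 at that level. Of all 24948 genes tested, 11.9% were at that level in edgeR. In DESeq2, 2607 of them were higher and 702 lower at that level, and in limma voom 3275 and 1699. Among the partners, the smallest p in edgeR belonged to *Morc4*, a MORC paralog. It was at 0.926 ± 0.475 CPM (SD, n = 5) at 33 °C and 1.69 ± 0.437 CPM at 42 °C (log2 fold change 0.87, SE 0.32, edgeR adjusted p = 0.386). *Rnaseh2c*, a subunit of the same enzyme as *Rnaseh2a*, had a log2 fold change of −0.30 (SE 0.16), and *Rif1*, a chromatin protein of replication timing, one of −0.23 (SE 0.12). Among the enzymes that remove DNA or H3K9 methylation, 0 of 14 passed in edgeR, with 2 at an unadjusted p under 0.05. DESeq2 and limma voom called 0, with 2 each at that level, beside the numbers over all genes just given. In edgeR those 2 were the H3K9 demethylases *Kdm3b* (15.9 ± 2.68 and 23.6 ± 6.68 CPM, SD, n = 5; log2 fold change 0.57, SE 0.20, edgeR adjusted p = 0.383) and *Phf8* (log2 fold change 0.55, SE 0.24, edgeR adjusted p = 0.426). The demethylase *Kdm4d* had a log2 fold change of −0.35 (SE 0.17).

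In the fit on the TE ratio, 2 of the 37 partners had a positive slope past the threshold and 9 a negative one, or 29.7% in all beside 21.4% of all genes (10.6% higher and 10.8% lower). Positive were *Mbd1*, a reader of methylated DNA (0.83, SE 0.17), and *Tasor*, a HUSH subunit (0.28, SE 0.09). Among the negative were the corepressor enzymes *Hdac1* (−0.37, SE 0.06), *Hdac2* (−0.37, SE 0.12) and *Kdm1a* (−0.36, SE 0.09) and the histone chaperone subunit *Chaf1a* (−0.30, SE 0.06). *Morc2b* (−0.40, SE 0.08), *H3f3a*, a gene for histone H3.3 (−0.36, SE 0.07), *Zfp819* (−0.52, SE 0.12) and *Wiz*, a partner of EHMT2 (−0.28, SE 0.09), were negative too. Of the 14 erasers 1 passed, *Kdm7a* (0.35, SE 0.08), or 7.14%. Without 42 °C replicate 2 the partners kept 1 call, *Hdac2*, and the erasers 0, beside 3.87% of all genes. At an unadjusted p under 0.05 in edgeR, the partners then had 2 positive and 9 negative slopes and the erasers 1 and 0. Beside these stood 3480 and 2224 of 25197 genes.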

How the data were processed

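The authors deposited 1 table of raw counts, with no normalization, for 55401 genes and 1146 TE subfamilies in 10 libraries. The values are whole numbers whose sums differ between libraries. Per the submitters' processing notes, Trim Galore, cutadapt and DRAGEN were used with GRCm38 and mm10. For the counting, the tool, the strand setting and the rule for multiply aligned reads were not given in the sources used here. Gene positions matched GENCODE M21 for 99.4% of 55141 shared identifiers, and exon lengths and overlaps came from it.

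Counts were tested with edgeR 4.0.16 in R 4.3.3 (quasi-likelihood, TMM over genes and TE together). Features were kept by filterByExpr (minimum count 10, minimum total 15, group size 5), which left 26025 features, of which 24948 were genes. P-values were adjusted by Benjamini-Hochberg over all 26025, with a threshold of 0.05. The second fit had the temperature and the log2 ratio of TE to gene counts as terms. CPM used TMM-scaled library sizes. The fits were tested on simulated data with 200 changed genes. Alternatives used DESeq2 1.42.0, limma 3.58.1, other scalings and filters, and left out each library. No 2 libraries of a group agreed within sampling noise (lowest chi-square per degree of freedom 15.4). The p-values measure the spread between libraries, each from a different mouse.

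The members and lists were chosen with earlier results of these data known. Values in every library are given for members past the threshold in any fit, the 6 of smallest p between temperatures, the 3 of smallest p for the slope, the 2 highest and 2 lowest per length and the 2 of widest spread in log2(CPM + 0.5). From the other lists, genes past the threshold and up to 3 of smallest p are named. The values of 1 such gene are not reported here.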

Additional observations from a re-analysis of the deposited data

Results flagged for a closer look

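Of 68 groups of 5 values (34 genes in 2 groups), 2 held a library that stood apart from the other 4 by Dixon's test at 95%, which by chance happens in about 1 in 20 groups. *Suv39h1*, an H3K9 methyltransferase gene, was at 8.67 CPM in 33 °C replicate 3, while the other controls lay at 5.38 to 5.86 CPM. *Tex19.2*, the paralog of *Tex19.1*, was at 3.29 CPM in 42 °C replicate 2, while the other heated libraries lay at 1.37 to 1.70 CPM.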

How the results depend on the processing

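The count of members called between temperatures was 0 under each of the 18 alternatives, as were those of partners and erasers. The replicate numbers did not pair the mice (correlations of same-numbered libraries −0.10 to −0.56, none best with its own number), and the fit with a replicate block called 0 members. For the slope on the TE ratio, 8 members were called. This was 5 with no filter on low counts, 0 without the 2 libraries farthest from the median TE ratio, and 2 to 10 when each library was left out. Calls over all genes changed too. They were 2655 higher and 2692 lower of 24948 in the fit reported and 2887 and 2560 of 45357 with no filter. Without the 2 farthest libraries they were 151 and 75 of 24989, and they were 830 and 144 of 25197 without 42 °C replicate 2. Fits without a library also had fewer samples, and the cause of these changes was not tested. Log2 fold changes near 0 changed sign. With TMM factors from genes alone they became 0.0158 for *Cbx1*, 0.0091 for *Atrx*, 0.00752 for *Samhd1* and 0.0483 for *Tex19.2*. With library totals they became 0.0216, 0.0060, 0.0131 and 0.0608, and with no filter 0.0292, 0.0167, 0.0210 and 0.0508. With a minimum mean of 1 CPM, *Cbx1* was at 0.00272 and *Tex19.2* at 0.0363. DESeq2 size factors gave *Tex19.2* 0.00702 and DESeq2 gave it 0.00538. Voom gave *Pphln1* −0.0016 and *Zc3hav1* −0.287, and the replicate block gave *Atrx* 0.00194 and *Zc3hav1* −0.0348. Leaving out each library moved *Dnmt1* from −0.271 to 0.0969, *Cbx1* from −0.197 to 0.0827, *Pphln1* from −0.0955 to 0.184, *Atrx* from −0.164 to 0.106, *Tex15* from −0.0556 to 0.297, *Samhd1* from −0.123 to 0.0855, *Zc3hav1* from −0.193 to 0.187 and *Tex19.2* from −0.27 to 0.0901. Counts under about 100 reads (*Trex1*, *Apobec3*, *Tex19.1*, *Atrx*) limit those genes most.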
